A study of Mus musculus with 8 samples.

Results

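The apolipoprotein genes described here were 10, Apoa1, Apoa2, Apoa4, Apob, Apoc1, Apoc3, Apoe, Apof, Apoh and Apom. They were taken by symbol from the 23467 genes of the table. They were chosen with their levels in these libraries known, selected on whether their RPKM fell with other liver genes in the libraries labelled L1L2_Alb or stayed high there, so their differences between genotypes are given as a description without a test. Apolipoproteins are the protein components of the particles that carry lipid in blood. APOB forms the scaffold of very low density lipoprotein, and APOA1 and APOA2 are the main proteins of high density lipoprotein (HDL). The smaller members move between particles and regulate lipases or receptor uptake, and the liver is the main source of most of them.

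RNA was sequenced from 8 libraries of mouse liver cells in culture. Hepatoblasts, the common precursors of hepatocytes and biliary epithelial cells, came from E14.5 fetal livers of B6;129 mixed mice and grew on collagen (iHB). Part of them received oncostatin M at 12.5 ng/ml for 5 days, per the labels, to become hepatocytes (iHP), and part were kept on Matrigel for 14 days to become biliary epithelial cells (iBEC). The 3 control libraries, 1 per stage, carried the label wild type. The 5 libraries labelled L1L2_Alb carried the genotype Lats1-/-;Lats2f/fl;Alb-cre, with 1 iHB, 2 iHP and 2 iBEC libraries, and L1L2_Alb always refers to that label. In this genotype *Lats1*, a kinase gene that restrains the coactivator YAP, is lost from every cell of the mouse, and *Lats2* is deleted only where the albumin promoter drives Cre. No source used here says whether libraries came from separate cultures or embryos, so the spread between libraries behind every p-value may be technical. In the fits with stage and genotype as additive terms, the residual spread also takes in differences between stages in the genotype effect.

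Values were RPKM, read counts scaled to transcript length and library depth, and differences were taken on the log2(RPKM + 1) scale, which understates the change of low genes. The step between low values gave depths of 18436865 to 33229075 reads per library. *Lats1* lay at 5.38 to 11.2 RPKM in the control libraries and 7.12 to 22.7 RPKM in the libraries labelled L1L2_Alb. *Lats2* lay at 6.90 to 10.1 RPKM and 10.9 to 27.6 RPKM, and the library labelled L1L2_Alb was above its own control in 4 of 5 cases for *Lats1* and 5 of 5 for *Lats2*. RNA of the targeted genes thus does not show the deletion, and per-gene values do not separate deleted exons from others. The control iBEC library held *Alb*, the hepatocyte marker for albumin, at 6162 RPKM, above its 2485 RPKM in control iHB, so the iBEC label does not mean that hepatocyte RNA was absent. All 10 apolipoprotein genes had a mean of at least 1 RPKM and entered the fits over 13421 genes. In bulk RNA, fewer cells of a type and less RNA per cell cannot be told apart.

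The 10 genes did not move together. *Apoa2*, *Apoa4*, *Apoc1*, *Apof* and *Apoh* were lower in all 5 libraries labelled L1L2_Alb than in the control library of the same stage. *Apoc3* was lower in the iHB and iHP libraries and lay on both sides of the control in iBEC. *Apoa1* was higher in iHB and iHP and lower in iBEC, where its sign turned after quantile normalization. *Apoe*, *Apob* and *Apom* had values on both sides of the control. In the limma fit over the 3 stages, 9 of the 10 genes had a negative log2 fold change, and their median was -1.69, beside 0.06 over all genes tested. The fit called 5 of the 10 lower and 0 higher at an adjusted p under 0.05 (Benjamini-Hochberg), beside 3.37% of all genes called lower and 6.20% called higher, and nothing is read from these counts because this contrast chose the genes. At an unadjusted p under 0.05, 3524 of all genes tested passed. The count of 5 became 3 without the iHB stage, 0 without the iHP stage and 6, with *Apoc3*, without the iBEC stage or without L1L2_Alb iBEC replicate 1. *Apoa2* was lost without either L1L2_Alb iHP library, without L1L2_Alb iBEC replicate 2 and with no filter on low values.

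**Figure D1:**
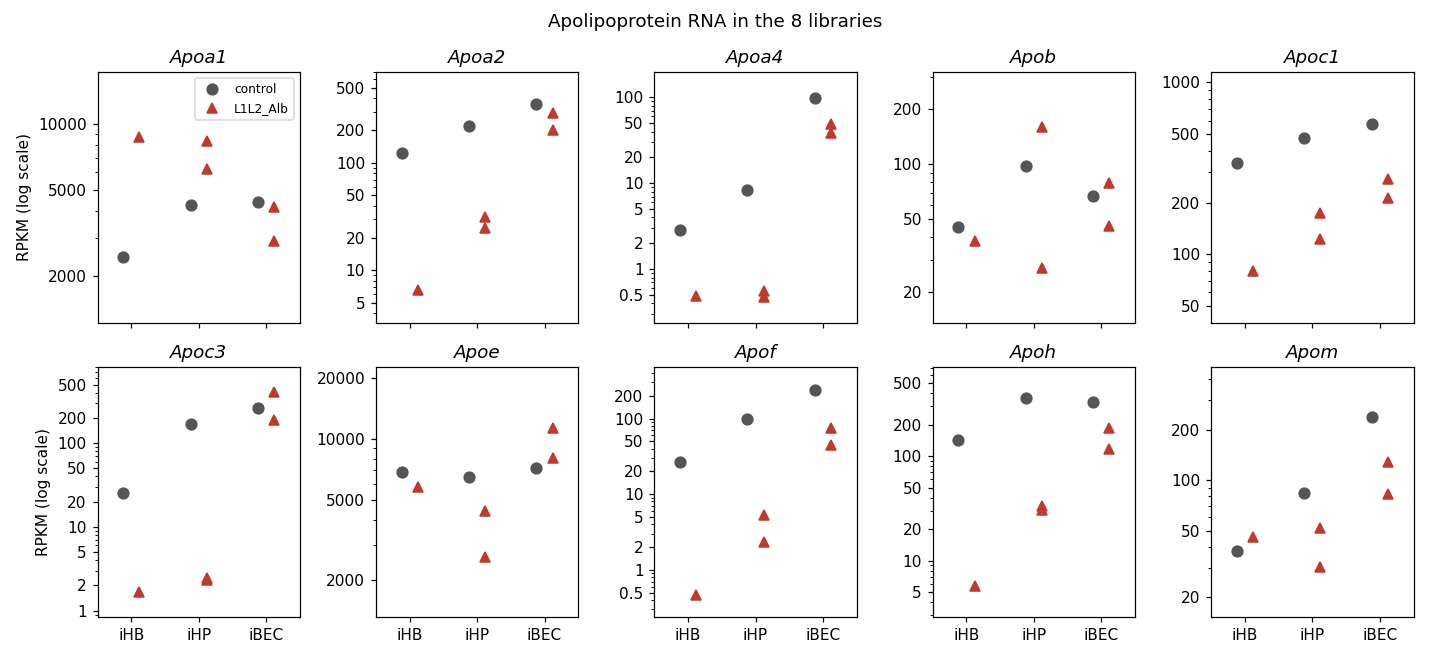
RPKM of the 10 apolipoprotein genes in each of the 8 libraries, on a log axis, by stage, with circles for control and triangles for L1L2_Alb libraries. *Apoa2*, *Apoa4*, *Apoc1*, *Apof* and *Apoh* lie below the control at every stage, while *Apoa1* lies above it in iHB and iHP.

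*Apoa1* encodes the main protein of HDL, which accepts cholesterol from cells and activates the plasma enzyme LCAT. Control iHB had 2451 RPKM of it, and L1L2_Alb iHB had 8670 RPKM. The iHP control had 4249 RPKM, beside 8351 and 6225 RPKM under L1L2_Alb. The iBEC control had 4404 RPKM, beside 4170 and 2889 RPKM under L1L2_Alb. The L1L2_Alb libraries thus lay above their control in iHB and iHP and below it in iBEC. The log2 difference was 1.82 in iHB (n = 1 library against 1), 0.76 ± 0.30 in iHP (SD, n = 2) and -0.34 ± 0.37 in iBEC (SD, n = 2), with the iBEC value at 0.30 after quantile normalization. *Apoa1* was the gene with the highest RPKM of the whole table in L1L2_Alb iHB and in L1L2_Alb iHP replicate 1, and ranked 16 and 12 in the control libraries of those stages.

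*Apoa2* encodes the other major HDL protein, and its RNA went the opposite way to *Apoa1* in iHB and iHP and lay below the control, as *Apoa1* did, in iBEC. It had 124 RPKM in control iHB, beside 6.56 RPKM under L1L2_Alb, a 19.0-fold lower level. The iHP control had 221 RPKM, beside 31.3 and 25.0 RPKM under L1L2_Alb. In iBEC the control stood at 351 RPKM and the L1L2_Alb libraries at 288 and 203 RPKM. The drop was deep in iHB and iHP and shallow in iBEC, with log2 differences of -4.05, -2.94 ± 0.22 (SD, n = 2) and -0.53 ± 0.36 (SD, n = 2). The ratio of *Apoa1* to *Apoa2* RPKM went from 19.7 to 1323 in iHB and from 19.2 to 267 and 249 in iHP. In iBEC that ratio was 12.6 in the control and 14.3 in L1L2_Alb replicate 2, with replicate 1 close to it.

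*Apoa4* and *Apoc3* are neighbours of *Apoa1* in 1 cluster on chromosome 9, which also holds *Apoa5*. APOC3 slows the clearance of triglyceride-rich particles, and APOA4 is best known as a chylomicron and HDL protein of the intestine. *Apoc3* had 25.7 RPKM in control iHB, beside 1.66 RPKM under L1L2_Alb. The iHP control had 167 RPKM, beside 2.48 and 2.33 RPKM under L1L2_Alb, 67.4-fold and 71.9-fold lower. The iBEC control had 266 RPKM, beside 408 and 189 RPKM under L1L2_Alb, on both sides of the control. The mean log2 difference in iBEC was 0.06 ± 0.78 (SD, n = 2), and it turned to -0.20 with upper-quartile scaling, -0.15 after quantile normalization and -0.49 without L1L2_Alb iBEC replicate 1. *Apoa4* had 2.85 RPKM in control iHB, beside 0.481 RPKM under L1L2_Alb. Its iHP values were 8.38 RPKM in the control, beside 0.553 and 0.479 RPKM under L1L2_Alb, and its iBEC values were 99.0 RPKM, beside 48.9 and 38.9 RPKM. Every L1L2_Alb value of *Apoa4* lay below the control of its stage. *Apoa5*, a further gene of the cluster and an activator of triglyceride clearance, was 3.69 and 0.360 RPKM in control and L1L2_Alb iHB. It had 36.8 RPKM in control iHP, beside 3.44 and 1.496 RPKM under L1L2_Alb, and 64.2 RPKM in control iBEC, beside 28.5 and 28.7 RPKM. Of this cluster, *Apoa1* was higher and its 3 neighbours lower in all 3 iHB and iHP libraries labelled L1L2_Alb, each beside its own control. The ratio of *Apoa1* to *Apoc3* RPKM went from 95.4 to 5214 in iHB and from 25.4 to 3362 and 2673 in iHP, beside 16.6 in control iBEC and 10.2 and 15.3 in L1L2_Alb iBEC.

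*Apof*, *Apoh* and *Apoc1* completed the genes that were lower at every stage. *Apof* encodes an inhibitor of lipid transfer between particles and had the most negative fitted value of the 10 genes, -3.51 (SE 0.461). It had 26.5 RPKM in control iHB, beside 0.469 RPKM under L1L2_Alb. Its iHP values were 97.2 RPKM in the control, beside 5.28 and 2.36 RPKM under L1L2_Alb, and its iBEC values were 242 RPKM, beside 44.7 and 74.2 RPKM. Its iBEC difference of -2.05 ± 0.51 (log2, SD, n = 2) was the lowest of the 10 genes at that stage. *Apoh*, beta-2-glycoprotein I, binds phospholipid and also takes part in coagulation. It had 143 RPKM in control iHB, beside 5.73 RPKM under L1L2_Alb. Its iHP values were 357 RPKM in the control, beside 30.5 and 33.5 RPKM under L1L2_Alb, and its iBEC values were 332 RPKM, beside 185 and 116 RPKM. *Apoc1*, which inhibits receptor uptake and lipid transfer, had 341, 474 and 576 RPKM in the iHB, iHP and iBEC controls. Under L1L2_Alb it had 80.1 RPKM in iHB, 123 and 174 RPKM in iHP and 274 and 213 RPKM in iBEC, so every control was above every L1L2_Alb library. Its mean differences spanned the narrowest range of the 5 genes that were lower at every stage, with -2.07 in iHB, -1.69 ± 0.35 in iHP and -1.25 ± 0.26 in iBEC (log2, SD, n = 2 for the last pair). The lowest values of this set rest on few reads: about 16.9 for *Apof* in L1L2_Alb iHB and about 18.5 for *Apoa4* in each L1L2_Alb iHP library, from transcript length and depth, over the 3 reads taken as the floor.

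*Apoe*, a ligand for the uptake of remnant particles by cells, is made by hepatocytes and also by macrophages. It had 6882 RPKM in control iHB, beside 5768 RPKM under L1L2_Alb. The iHP control had 6498 RPKM, beside 2627 and 4428 RPKM under L1L2_Alb. The iBEC control had 7236 RPKM, beside 8054 and 11408 RPKM under L1L2_Alb. The controls spanned a narrow range, and the L1L2_Alb libraries lay below it in iHB and iHP and above it in iBEC. The log2 differences were -0.25, -0.93 ± 0.53 (SD, n = 2) and 0.41 ± 0.36 (SD, n = 2), and the iHB difference was 0.00 after quantile normalization. The summed RPKM of the 13 macrophage markers measured went the same way as *Apoe* in iHP and iBEC, but single markers did not all do so. The sum was 3902 and 3879 in control and L1L2_Alb iHB, 2599, 1287 and 2290 in the iHP libraries and 2496, 4461 and 5549 in the iBEC libraries. In L1L2_Alb iHP replicate 2, *Cd68* (120 RPKM, control 93.3) and *C1qa* (200 RPKM, control 173) were above the control, and *Ptprc* (3.59 RPKM, control 14.9) was below. In iBEC, *Marco* had 25.4 RPKM in the control, beside 24.0 and 406 RPKM under L1L2_Alb. All 13 were above 0 in every library. Of them 0 were called in either direction, beside 3.37% of all genes called lower and 6.20% called higher. The part of these markers in the *Apoe* values was not tested.

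*Apob* and *Apom* gave no common direction. *Apob* had 45.6 RPKM in control iHB, beside 38.1 RPKM under L1L2_Alb. Its iHP values were 98.5 RPKM in the control, beside 160 and 27.2 RPKM under L1L2_Alb, and its iBEC values were 66.9 RPKM, beside 45.7 and 79.3 RPKM. The 2 L1L2_Alb libraries lay on opposite sides of the control in iHP and again in iBEC, and the iHP mean of -0.56 ± 1.78 (SD, n = 2) became 0.70 without replicate 2. The 2 L1L2_Alb iHP libraries also differed by transcript length: the median log2 difference of replicate 2 minus replicate 1 ran from 0.45 for genes with coding transcripts of up to 1000 bases to -0.27 for those over 10000 bases. The longest *Apob* transcript has 13934 bases, the longest of the 10 genes, and the part of length in its values was not tested. *Apom*, the HDL carrier of sphingosine-1-phosphate, stood at 37.5 and 45.7 RPKM in control and L1L2_Alb iHB, 84.2, 30.3 and 51.9 RPKM in the iHP libraries and 238, 83.0 and 128 RPKM in the iBEC libraries. It was above the control in iHB and below it in the 4 others, with log2 differences of 0.28, -1.07 ± 0.54 (SD, n = 2) and -1.20 ± 0.43 (SD, n = 2).

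**Figure D2:**
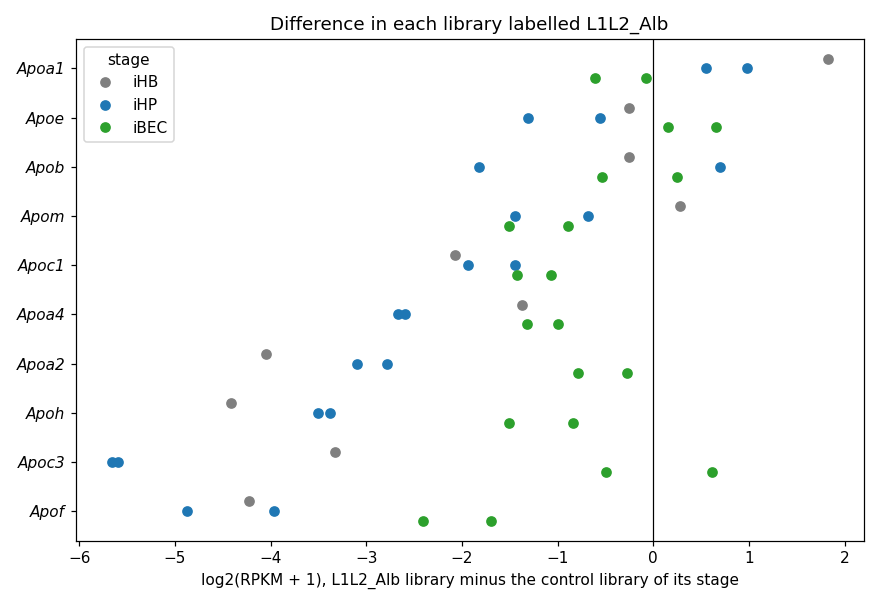
Difference in log2(RPKM + 1) between each library labelled L1L2_Alb and the control library of its stage, with 1 point per library and the genes ordered by the fitted fold change over 3 stages. *Apoa1* has the 3 iHB and iHP points above 0, and *Apoc3* has its iHP points at -5.59 and -5.66 and its iBEC points at 0.62 and -0.49.

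The sum over the 10 genes hid these moves. They made up 1.43% to 2.10% of the summed RPKM of a library, and *Apoa1* and *Apoe* alone held most of it. *Apoa1* took 24.3% of the apolipoprotein RPKM in control iHB, beside 59.3% under L1L2_Alb. In iHP it took 34.7% in the control and 73.5% and 56.7% in the L1L2_Alb libraries. In iBEC it took 31.9% in the control and 30.7% and 18.8% in the L1L2_Alb libraries. The 8 genes other than *Apoa1* and *Apoe* summed to 745 RPKM in control iHB and 179 RPKM in L1L2_Alb iHB, 1508 RPKM in control iHP, beside 384 and 317 RPKM under L1L2_Alb, and 2171 RPKM in control iBEC, beside 1378 and 1041 RPKM under L1L2_Alb.

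**Figure D3:**
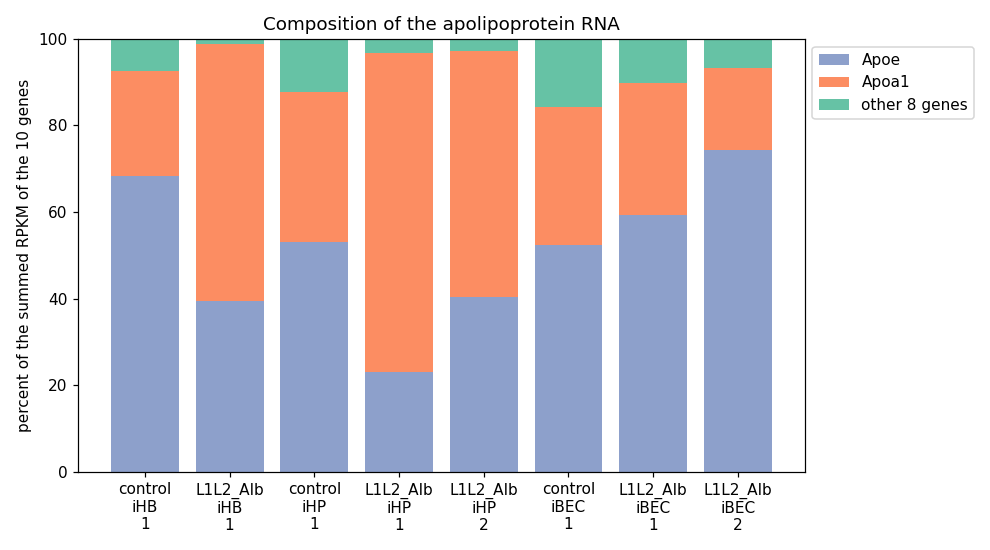
Share of *Apoe*, *Apoa1* and the other 8 genes in the summed RPKM of the 10 genes, in percent, with 1 bar per library. *Apoa1* is the larger share in the L1L2_Alb iHB and iHP libraries, at 56.7% to 73.5%, and *Apoe* in all other libraries.

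Start-site sequences of members on both sides of this split are shown, so that genes that moved apart can be read side by side. RefSeq entries of build GRCm38.p6, 250 bases before to 50 bases after a start, were matched by symbol for 7 of the 10 genes, with 10 entries; *Apoc1*, *Apoc3* and *Apof* were not matched. The nearest GENCODE transcript start on the same build fell on the RefSeq start for the *Apoa2* and *Apoe* entries shown, 4 bases before it for *Apoh* and 50 bases before it for *Apoa1*. Each window is printed 5′ to 3′ on the strand of its gene, with capitals where a searched motif matched on either strand. *Apoa1* (chr9:46228380-46228679, plus strand) and *Apoe* (chr7:19699139-19699438, minus strand, the first of 3 entries) kept high levels. As deposited, *Apoe* was nonetheless below its control in the L1L2_Alb iHB and iHP libraries and above it in iBEC, opposite to *Apoa1*. *Apoa2* (chr1:171224804-171225103, plus strand, the first of 2 entries) and *Apoh* (chr11:108395047-108395346, plus strand) were lower in the L1L2_Alb libraries.
Apoa1: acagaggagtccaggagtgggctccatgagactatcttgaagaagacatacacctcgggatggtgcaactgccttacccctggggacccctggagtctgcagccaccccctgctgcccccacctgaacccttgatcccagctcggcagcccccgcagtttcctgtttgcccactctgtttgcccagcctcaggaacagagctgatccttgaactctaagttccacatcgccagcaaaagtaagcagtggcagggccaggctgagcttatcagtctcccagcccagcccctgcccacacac
Apoe: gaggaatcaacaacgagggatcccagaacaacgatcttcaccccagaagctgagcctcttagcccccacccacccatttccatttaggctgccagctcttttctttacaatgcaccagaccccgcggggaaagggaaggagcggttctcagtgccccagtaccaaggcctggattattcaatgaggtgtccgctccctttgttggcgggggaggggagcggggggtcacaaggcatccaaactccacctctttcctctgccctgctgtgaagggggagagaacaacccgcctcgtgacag
Apoa2: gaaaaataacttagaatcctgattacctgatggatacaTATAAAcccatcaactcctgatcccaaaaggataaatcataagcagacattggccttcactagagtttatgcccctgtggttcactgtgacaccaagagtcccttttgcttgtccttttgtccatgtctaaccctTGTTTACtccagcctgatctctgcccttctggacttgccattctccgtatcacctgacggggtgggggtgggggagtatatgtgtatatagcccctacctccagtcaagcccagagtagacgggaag
Apoh: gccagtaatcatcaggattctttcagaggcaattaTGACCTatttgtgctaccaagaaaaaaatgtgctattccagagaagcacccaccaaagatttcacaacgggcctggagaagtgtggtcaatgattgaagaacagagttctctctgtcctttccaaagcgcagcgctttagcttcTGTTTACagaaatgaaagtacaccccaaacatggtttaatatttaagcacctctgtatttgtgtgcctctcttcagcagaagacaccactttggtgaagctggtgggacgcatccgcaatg

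The 8 motifs searched were AGGTCA of nuclear receptors, CAAAGTCCA of HNF4, CAAAGGTCA of paired nuclear receptor sites, which overlaps the first motif, GTTAAT of HNF1, TGTTTAC of FOXA factors, TTGCNNAA of C/EBP factors, GGAATG of the YAP partner TEAD and TATAAA. Among 32851 windows of the same length they were found in 16.3%, 0.475%, 0.478%, 7.10%, 3.65%, 10.8%, 14.7% and 13.6%, in that order. The *Apoa1* window and the first *Apoe* window held none of these letters. The second *Apoe* entry held TATAAA at 2 places, and the third held the HNF1, FOXA and TEAD motifs. The first *Apoa2* entry held TGTTTAC and, farther from the start, TATAAA, and the second held AGGTCA and, at 2 places, TTGCNNAA. *Apoh* held AGGTCA on the minus strand and TGTTTAC. Of the windows not shown, *Apoa4* held the TEAD motif, *Apob* held the C/EBP motif and TATAAA, and *Apom* held none. These matches describe letters in the windows, not binding.

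The rule did not name the differences between stages, and these were tested. The L1L2_Alb values that the rule looked at also enter these tests. The stage calls on the 10 genes are therefore not independent of how the genes were chosen. Against iHB, iBEC libraries were higher in 7 of the 10 genes in the additive limma fit with genotype as a term (Benjamini-Hochberg, adjusted p under 0.05, two-sided), beside 2.94% of all genes called higher. The genes were *Apoa4* (log2 fold change 4.91, SE 0.364, adjusted p = 6.12e-04), *Apof* (4.47, SE 0.575, adjusted p = 0.00463), *Apoa2* (3.55, adjusted p = 0.0209), *Apoc3* (5.51, SE 1.10, adjusted p = 0.0265), *Apoh* (3.12, adjusted p = 0.0276), *Apom* (1.82, adjusted p = 0.0347) and *Apoc1* (1.23, adjusted p = 0.0389). *Apoa1* (-0.40), *Apob* (0.62) and *Apoe* (0.51) did not pass. These values pool both genotypes: the same subtraction gave 0.85 in the controls and -1.32 in the L1L2_Alb libraries for *Apoa1*, 1.49 and 5.01 for *Apoa2*, 1.21 and 4.45 for *Apoh*, 3.32 and 6.71 for *Apoc3*, 4.70 and 4.91 for *Apoa4*, and 2.64 and 1.15 for *Apom*. In the L1L2_Alb libraries alone, 5 of the 10 genes were called, without *Apoc1* and *Apom*. The median over the 10 genes was 2.47, beside -0.25 over all genes tested. Without L1L2_Alb iBEC replicate 2 the count fell to 2, *Apoa4* and *Apof*, and so it did with no filter on low values. *Apoh* was also lost without L1L2_Alb iHP replicate 1, and *Apoc1* without L1L2_Alb iBEC replicate 1. The share of calls that were higher among all genes was 51.4%, and 72.8% with upper-quartile scaling or 65.3% after quantile normalization, each of which kept all 7 genes, and 29.9% without L1L2_Alb iHP replicate 2, which also kept all 7.

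Against iHP, iBEC libraries were higher in 3 of the 10 genes by the same fit, beside 2.45% of all genes called higher. These were *Apoa4* (log2 fold change 4.39, SE 0.322, adjusted p = 0.00200), *Apof* (2.88, SE 0.510, adjusted p = 0.0237) and *Apoc3* (4.46, SE 0.977, adjusted p = 0.0463). *Apoa4* was called under every alternative run, *Apof* and *Apoc3* were lost with no filter on low values and without L1L2_Alb iHP replicate 1 or either L1L2_Alb iBEC library, and *Apoc3* also with a pseudocount of 0.1 or without L1L2_Alb iHP replicate 2. The share of higher calls among all genes was 59.5%, 69.9% with upper-quartile scaling and 36.0% without L1L2_Alb iHP replicate 2. Between iHP and iHB, 0 of the 10 genes and 0% of all genes were called in either direction by limma, although 3 of the 10 and 1158 of all genes had an unadjusted p under 0.05. The 3 were *Apoh* (1.71), *Apof* (1.59) and *Apoc1* (0.66), all higher in iHP. The median of the 10 genes was 0.78, beside -0.15 over all genes.

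Within the libraries labelled L1L2_Alb alone, the 2 iBEC libraries were set against the 2 iHP libraries in a fit with 6 conditions. The fit called 5 of the 10 genes higher in iBEC, beside 3.16% of all genes called higher (limma, Benjamini-Hochberg, two-sided). *Apoc3* was higher by 6.35 (log2, SE 0.396, adjusted p = 0.00246), *Apoa4* by 4.88 (SE 0.298, adjusted p = 0.00246), *Apof* by 3.67 (SE 0.406, adjusted p = 0.00946), *Apoa2* by 3.07 (SE 0.318, adjusted p = 0.00853) and *Apoh* by 2.16 (SE 0.329, adjusted p = 0.0220). *Apoe* (1.49, adjusted p = 0.224), *Apom* (1.35, adjusted p = 0.106), *Apoc1* (0.72), *Apob* (-0.14) and *Apoa1* (-1.05, adjusted p = 0.345) did not pass. The same subtraction in the single control libraries gave 0.66 for *Apoc3*, 3.41 for *Apoa4*, 1.31 for *Apof*, 0.66 for *Apoa2*, -0.10 for *Apoh*, 0.16 for *Apoe* and 0.05 for *Apoa1*, and the difference between genotypes was not tested. The fit has 2 residual degrees of freedom: with either L1L2_Alb iHP library left out, 0 of the 10 genes and 0 of all genes were called, and likewise 0 with no filter on low values. Without L1L2_Alb iBEC replicate 1, *Apoa4*, *Apoc3* and *Apof* were called, and without replicate 2, *Apoa2*, *Apoa4* and *Apoc3*.

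**Figure D4:**
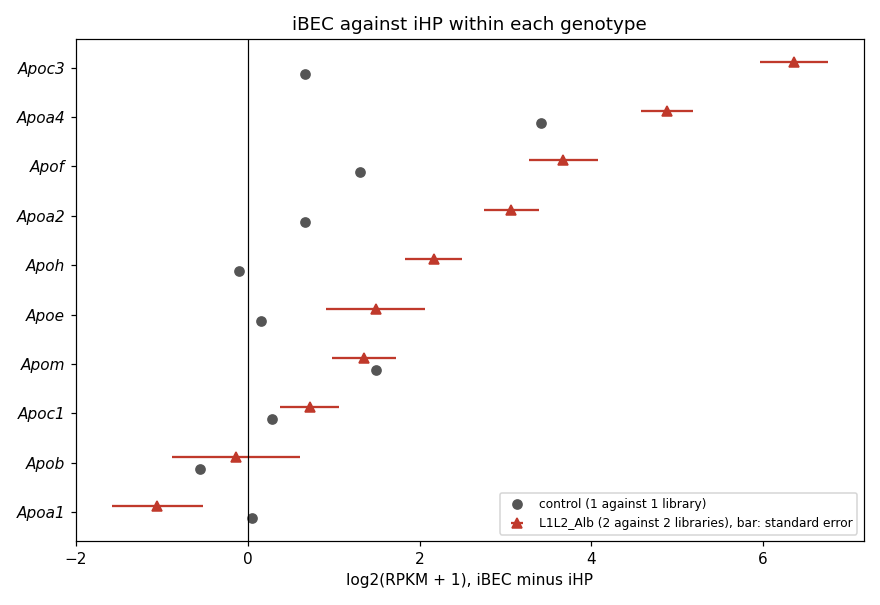
Difference in log2(RPKM + 1) between iBEC and iHP for the 10 genes, with triangles for L1L2_Alb (2 against 2 libraries, bar for the standard error) and circles for the control (1 against 1 library). *Apoc3* lies at 6.35 in L1L2_Alb and 0.66 in the control, and *Apoa1* lies at -1.05 and 0.05.

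Likeness of pattern was measured by Pearson's r of log2(RPKM + 1) over the 8 libraries, which share stages and genotypes, so it is a description. The same libraries were used to choose the 10 genes, so r among them or with other liver genes is not independent of that choice. Among *Apoa2*, *Apoa4*, *Apoc1*, *Apoc3*, *Apof* and *Apoh*, the 15 pairs had r from 0.69 to 0.97, with a median of 0.90. *Apoa1*, *Apob*, *Apoe* and *Apom* were left out of these pairs with their values known, so high r there follows in part from that choice. *Apoa2* and *Apoh* were the closest pair of the 10 genes. *Apom* was nearest to *Apoa4* (0.89) and *Apoe* to *Apoc3* (0.75), while *Apob* reached at most 0.35, with *Apof*. *Apoa1* had its highest r among the members at 0.05, with *Apob*, and its lowest at -0.76, with *Apoa2*. The genes nearest to *Apoa1* over the table were Fermt2 (0.97), 1700001C19Rik (0.95) and Sycp3 (0.93), and those nearest to *Apoe* were Rab3il1 (0.98), Fkbp2 (0.97) and Maf (0.97). For *Apof* they were Serpinc1 (0.99), Pcx (0.99) and Creb3l3 (0.99), and for *Apoc1* they were Nr5a2 (0.99), Gpam (0.99) and Nr1i2 (0.98). With *Hnf4a*, a nuclear receptor gene of hepatocytes, r was 0.94 for *Apof*, 0.93 for *Apoc1*, 0.88 for *Apoh*, 0.85 for *Apoa2*, 0.80 for *Apoc3*, and 0.76 for both *Apoa4* and *Apom*, beside 0.54 for *Apoe*, 0.27 for *Apob* and -0.64 for *Apoa1*.

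The other liver genes show what the 10 genes are read against. A list of 46 tested genes, most of them for secreted liver proteins, is named the other secreted liver genes here. It was chosen with earlier results of these data known. Of these genes, 39 were called lower in the libraries labelled L1L2_Alb and 0 higher (limma, 3 stages, Benjamini-Hochberg), beside 3.37% and 6.20% of all genes. The median log2 fold change of the 46 was -2.14. *A2m* (-3.92), *Vtn* (-3.57) and *Itih3* (-3.39) led them, and *C4b* (-2.38), *Serpina1d* (-2.20) and *Igfbp1* (-1.74) did not pass. The medians of this list by stage were -2.62 in iHB, -2.30 in iHP and -1.51 in iBEC, beside -1.73, -2.16 and -0.85 for the 10 apolipoprotein genes and -0.09, -0.01 and 0.25 for all genes tested. Upper-quartile scaling brought the last value to 0.02. The fetal liver gene *Afp*, at 0.07, was the 1 gene of this list with a positive value.

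The list of other apolipoprotein genes was a broad one, with the receptor gene *Apobr* and with *Apoo* and *Apool* among its genes. Among its 13 genes tested, 4 were called lower and 1 higher, beside 3.37% and 6.20% of all genes, with a median of -1.26. *Apoa5* (-2.18), *Apoc4* (-1.73), *Apon* (-1.67) and *Apoc2* (-1.26) were lower, and *Apol7a* (1.28) was higher. *Apol7a* lay at 0.0257 to 0.390 RPKM in the controls and 0.891 to 4.01 RPKM in the L1L2_Alb libraries, so it passed the filter on low values only through the group where it is higher. The acute-phase genes *Saa2* (-2.60), *Saa1* (-2.31) and *Saa4* (-1.53) did not pass. *Clu*, for the HDL protein clusterin, had 0.33 and did not pass, at 3104 to 5098 RPKM in the controls and 3201 to 8017 RPKM in the L1L2_Alb libraries. *Apoc1*, *Apoc2* and *Apoc4* lie with *Apoe* in 1 cluster on chromosome 7, where all 3 were lower in the 5 L1L2_Alb libraries and *Apoe* was lower in 3 of them.

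Genes that act on lipoproteins had fitted values of both signs. Over all genes tested, 3.37% were called lower and 6.20% higher, so 1 call in a list of 21 or 28 genes is near those shares. Of 28 regulators of apolipoprotein genes tested, 7 were lower and 1 higher, with a median of -0.38, led by *Nr5a2* (-1.51), *Prox1* (-1.42) and *Hnf4a* (-1.33), and *Foxa2* was higher by 1.18. *Onecut1* (-1.46), *Nr1h3* (-1.09) and *Nr1d1* (1.01) did not pass. Of 25 assembly and secretion genes, 4 were lower, with *Aadac* (-1.72), *A1cf* (-1.48) and *Cideb* (-1.29) first, and *Mttp*, for the transfer protein that loads lipid on APOB, had -1.14 without passing, as did *Dgat2* (-1.08) and *Sort1* (0.95). Of 20 genes of HDL formation and remodelling, 2 were lower, with *Lcat* (-1.80) first, and 3 higher, with *Pcyt1a* (1.04) first, and *Lipc* (-1.12), *Pon2* (0.93) and *Gpld1* (-0.74) did not pass. Of 21 lipoprotein receptor genes, 5 were higher, with *Lrp2* (2.33) and *Cubn* (2.09) first, and 2 lower, *Cd36* (-1.60) among them. *Scarb1* (-0.29), the HDL receptor, *Lrp1* (-0.70) and *Sorl1* (-1.25) did not pass. Of 21 cholesterol synthesis genes, *Dhcr7* (-0.84) alone was called, and *Ebp* (0.73) and *Sc4mol* (0.59) were not. Of the calls over all genes, 64.8% were higher as deposited, 49.2% with upper-quartile scaling and 53.1% after quantile normalization.

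**Figure D5:**
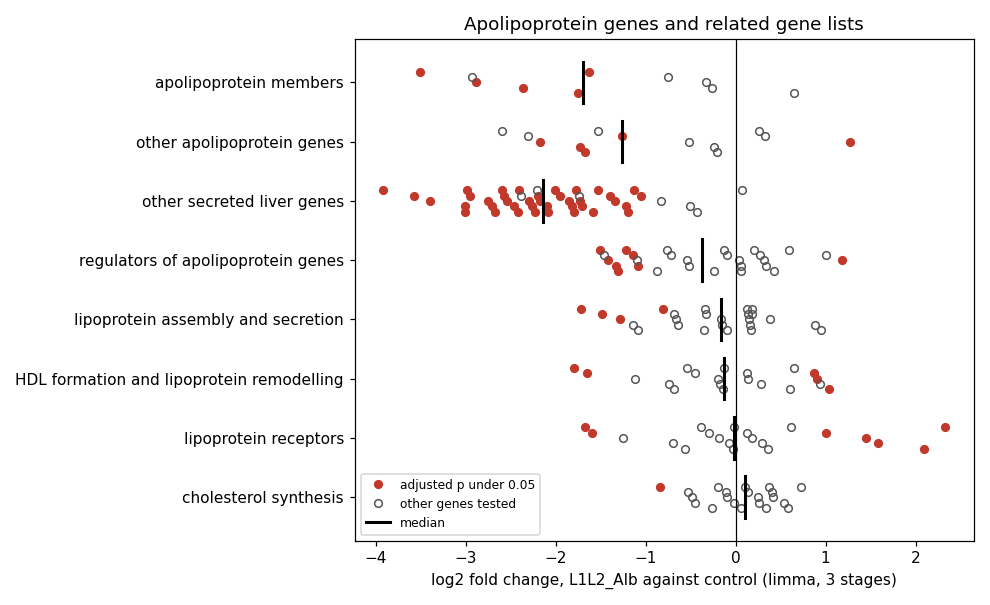
Log2 fold change between L1L2_Alb and control over 3 stages for every tested gene of the apolipoprotein genes and 7 related lists, with filled points for an adjusted p under 0.05 and a bar for each median. The medians are -1.69 for the 10 apolipoprotein genes, -2.14 for the other secreted liver genes and -0.02 for the receptors.

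Marker lists of cell types were read in the same libraries, beside 3.37% of all genes called lower and 6.20% called higher. The 8 hepatocyte markers summed to 20774 to 61793 RPKM in the controls and 7523 to 28820 RPKM in the L1L2_Alb libraries, with 7 of 8 called lower, led by *Ahsg* (-2.59), *Serpina1a* (-2.42) and *Ttr* (-1.95), and *Afp* not. All 8 also belong to the other secreted liver genes above, so their calls are not a separate reading. Of 6 biliary markers, *Krt7* (2.17) and *Krt19* (1.31) were higher and *Spp1* (-1.503) lower, with sums of 2589 to 23475 RPKM and 2482 to 11819 RPKM. The highest sum, in control iBEC, was mostly *Spp1* (23271 RPKM). In that library *Krt7* (62.3 RPKM), *Krt19* (83.7 RPKM), *Epcam* (2.96 RPKM) and *Cldn4* (41.5 RPKM) were lower than in any other library. *Sox9* was higher there than in control iHB (13.3 and 5.53 RPKM). The 10 mesenchymal markers summed to 2674 to 4666 RPKM and 744 to 3791 RPKM, with 0 called. Their median log2 difference was -1.47 in iHB and -1.64 in iHP but 0.26 in iBEC, where L1L2_Alb replicate 1 summed to 3791 RPKM and replicate 2 to 1705 RPKM, beside 2674 RPKM in the control. The 6 endothelial markers summed to 7.99 to 23.7 RPKM and 2.90 to 21.6 RPKM, with 0 called, and the 6 erythroid markers to 3.16 to 110 RPKM and 2.22 to 22.8 RPKM, with *Hbb-b1* (-2.09) called. The part of these cells in the apolipoprotein values was not tested.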

How the data were processed

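RNA of 8 mouse libraries was read from 1 table of 23471 gene entries, of which 4 with a repeated symbol were left out. The deposited values were taken as RPKM made by the authors, from the values themselves. Per the labels, processing used Bowtie 0.12.2 and the build mm8; the counting method and annotation are not given in the sources used here. Depth was recovered from the value steps of short RNA genes with RefSeq lengths (91.1% to 95.1% of them whole reads within 0.03) and used for depth alone. Groups came from titles and genotype labels.

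The 13421 genes that averaged 1 RPKM or more were tested on log2(RPKM + 1) with limma 3.58.1 (lmFit, eBayes with trend; R 4.3.3) and Benjamini-Hochberg adjustment. The additive fit had stage and genotype (4 residual degrees of freedom), and a fit of 6 conditions (2 residual degrees of freedom) set L1L2_Alb iBEC against L1L2_Alb iHP. The code was tested on simulated data. Alternatives were the pseudocount, scaling, filter, single libraries or stages left out and a replicate block. The titles' replicate numbers 1 and 2 were checked for pairing: the differences between the 2 replicates of iHP and of iBEC had r = -0.02 over genes. They were not treated as pairs, although this r cannot exclude a shared culture or embryo. The 2 L1L2_Alb libraries of a stage differed over 2-fold in 12.1% (iHP) and 4.98% (iBEC) of genes tested. They were counted as 2 libraries, but this difference does not show that they came from separate cultures or embryos.

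The members and lists were chosen with earlier results of these data known. All 10 members are named. Of each list, the 3 largest fold changes among genes called and the 3 among genes not called are named, with *Hnf4a*, *Lrp1* and *Scarb1* always; a few genes this rule names are not reported here. *Afp*, *Alb*, *Apobr*, *Apoc2*, *Apol7a*, *Apoo*, *Apool*, *C1qa*, *Cd36*, *Cd68*, *Clu* and *Foxa2* were added after their values were seen. Transcript lengths came from GENCODE (87.8% of tested genes matched).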

Additional observations from a re-analysis of the deposited data

Results flagged for a closer look

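*Apoa1*, *Apoe* and *Apom* had L1L2_Alb libraries on opposite sides of the control at different stages, every library of a stage going the same way. For *Apoa1* the log2 difference was 1.82 in iHB and 0.76 in iHP, against -0.34 in iBEC, which was 0.30 after quantile normalization. For *Apoe* it was -0.25 in iHB and -0.93 in iHP, against 0.41 in iBEC. For *Apom* it was 0.28 in iHB, against -1.07 in iHP and -1.20 in iBEC. These differences between stages were not tested, and each stage rests on 1 control library.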

How the results depend on the processing

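With 1 control library per stage, no stage has a spread of its own for the controls. For L1L2_Alb against control, 5 of the 10 genes were called lower: 3 without stage iHB, 0 without stage iHP, and 4 to 6 without single L1L2_Alb libraries or without stage iBEC. Calls over all genes in this comparison numbered 1284, 686 with no filter on low values, and 793 to 1227 with a library left out. They numbered 326 without stage iHB, 132 without stage iHP and 1396 without stage iBEC. For iHP against iHB they numbered 0, 3 with upper-quartile scaling, 4 with a mean of at least 5 RPKM, and 0 to 1 with a library left out. For iBEC against iHB, 7 of the 10 genes were called, 2 with no filter and 2 to 7 with a library left out. All-gene calls there were 768, 492 with no filter, 334 in the L1L2_Alb libraries alone, and 488 to 1739 with a library left out. For iBEC against iHP, 3 of the 10 were called, 1 with no filter, 5 in the L1L2_Alb libraries alone, and 1 to 2 with a library left out. All-gene calls there were 553, 211 with no filter, and 156 to 987 with a library left out. For L1L2_Alb iBEC against L1L2_Alb iHP, 5 of the 10 were called, 0 with no filter, and 0 to 3 with a library left out. All-gene calls there were 492, 0 with no filter, and 0 to 126 with a library left out; the cause of these moves was not tested beyond fewer libraries and more genes tested. The replicate block used the title numbers, which are not known to pair the libraries. With it, all-gene calls rose to 911 (708 higher, 203 lower) and 6 of the 10 genes were called, *Apom* added. Reads behind the lowest values, about 16.9 for *Apof*, limit what can be said of folds there.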
